A study of Rattus norvegicus with 28 samples.

Results

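The genes described here encode the machinery that docks, primes and fuses the insulin secretory granule of the beta cell. The list of 35 gene symbols holds the SNARE proteins and the factors that recycle them, the calcium sensors and complexins, the Rab GTPases of the granule and their effectors, the priming factors and the pair of granule membrane phosphatase-like proteins. Each symbol was looked up in the deposited transcript table, and of several transcripts for 1 symbol only that with the greatest mean was kept. A row was found for 34 of the 35 symbols, and Cadps2 is not analysed here. All 34 had a mean of at least 1 TPM (a transcript's level scaled to its length and to the library) and were tested together with the other symbols at that level, 10275 of 17455 in all.

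RNA-seq was carried out in the rat insulinoma line INS-1, either WT or with the S983A change knocked into Med14, the scaffold subunit of the Mediator complex. The change removes a site of protein kinase A. The Med14 S983A lines were made with a CRISPR nuclease and a repair template and were grown from sorted single cells, and which line gave these libraries is not given in the sources used here. All cells, untreated ones included, were of the same INS-1 background, and cells were put in serum-free medium before treatment with 10 nM exendin-4 (Ex-4), which activates the receptor for the incretin GLP-1, or 10 µM forskolin (FSK), a direct activator of adenylyl cyclase. Treatment lasted 1, 8 or 16 h, untreated cells are called CON, and each of the 14 groups (2 genotypes, CON and 6 treatments in each) has 2 libraries. The comparisons address whether prolonged cAMP signalling changes the transcripts of the secretory apparatus and whether that change differs between WT and Med14 S983A cells. An effect of the residue and other differences between the lines cannot be told apart here.

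As background, an insulin granule is brought to the plasma membrane by Rab27a and Rab3 proteins with effectors such as granuphilin (Sytl4) and Noc2 (Rph3al). It is then primed by Munc13 and CAPS proteins and fuses when the granule SNARE Vamp2 zippers with syntaxin 1A (Stx1a) and Snap25 under the control of synaptotagmins and complexins, after which Nsf and the alpha-SNAP adaptors (Napa, Napb) take the complex apart. Cyclic AMP is known in beta cells for potentiating this process acutely through protein kinase A and the exchange factor encoded by Rapgef4, while the values below concern transcript levels only.

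Between 42551133 and 57231981 fragments were recovered per library, and 92635979 for 1 deeper library, Med14 S983A 8 h FSK replicate 2. Spike-in RNAs (ERCC) made up 0.671% to 1.03% of fragments. Of 10 beta cell markers 8 had a row, and their summed level was 51150 to 89570 TPM, while markers of delta, PP, acinar, endothelial and fibroblast cells stayed under 1 TPM in every library and Cd68, of macrophages, reached 1.75 TPM at most. Gcg, the glucagon gene, had a mean of 167 TPM in WT CON and 6.32 TPM in Med14 S983A CON, while the alpha cell marker Irx1 stayed under 0.1 TPM in both genotypes. The beta cell markers Ins2 (2938 TPM in WT CON and 35070 TPM in Med14 S983A CON) and Slc2a2 (517 and 62.6 TPM) also differed between the genotypes, and the part of such differences between the lines in the values below was not tested. The S983A substitution itself cannot be read from transcript levels. The labels do not say whether the 2 libraries of a group came from separate cultures, so the p-values measure only the spread between these libraries, which may be technical. In bulk RNA, fewer cells that express a gene and less RNA per cell cannot be told apart.

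Promoter windows of RefSeq (build GRCr8, whereas the transcript table was made on rn6, so that positions of the builds are not mixed) were found for 27 of the 34 genes. The windows span 250 bases before to 50 after the annotated start. They were searched on both strands for the cAMP response element, TGACGTCA, to which CREB binds, and for its core, TGACG, which is contained in the full element. At least 1 core was present in 10 of the 27 windows (37%), against 23% of the 27457 genes with a window, and 2 or more were present in 6 (22.2%), against 5.43%. The full element was present in 1 window, that of Napa (3.7%, against 2% of all genes). The genes set beside the members were not filtered on expression, whereas all members had a mean of at least 1 TPM. Shares among the tested symbols were not counted, so these figures do not show an excess of cores in the members. The windows of 4 genes that were higher or lower after both Ex-4 and FSK are printed here from 250 bases before to 20 bases after the start, together with that of Napa, which holds the full element. Capitals mark the cores and the full element on either strand, and all windows are written 5′ to 3′ along the strand of the gene.
Syt4 (chr18:23320844-23321113, GRCr8, minus strand): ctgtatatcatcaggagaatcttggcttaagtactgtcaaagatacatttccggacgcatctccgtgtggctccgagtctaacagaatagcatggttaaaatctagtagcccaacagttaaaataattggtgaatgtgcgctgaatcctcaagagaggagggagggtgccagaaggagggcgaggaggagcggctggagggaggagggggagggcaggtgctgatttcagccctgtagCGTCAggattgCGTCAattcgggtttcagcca
Ptprn (chr9:84204804-84205073, GRCr8, minus strand): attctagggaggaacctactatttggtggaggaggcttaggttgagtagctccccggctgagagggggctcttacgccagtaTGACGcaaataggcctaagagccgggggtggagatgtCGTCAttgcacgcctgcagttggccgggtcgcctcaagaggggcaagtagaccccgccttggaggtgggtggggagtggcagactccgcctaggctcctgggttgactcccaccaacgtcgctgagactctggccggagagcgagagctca
Rab3a (chr16:18722254-18722523, GRCr8, minus strand): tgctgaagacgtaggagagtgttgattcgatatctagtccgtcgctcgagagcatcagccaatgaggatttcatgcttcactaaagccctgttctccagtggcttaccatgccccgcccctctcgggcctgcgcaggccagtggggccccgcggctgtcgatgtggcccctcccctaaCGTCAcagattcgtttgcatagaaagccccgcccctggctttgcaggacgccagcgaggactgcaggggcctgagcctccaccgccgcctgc
Rab3b (chr5:128858841-128859110, GRCr8, plus strand): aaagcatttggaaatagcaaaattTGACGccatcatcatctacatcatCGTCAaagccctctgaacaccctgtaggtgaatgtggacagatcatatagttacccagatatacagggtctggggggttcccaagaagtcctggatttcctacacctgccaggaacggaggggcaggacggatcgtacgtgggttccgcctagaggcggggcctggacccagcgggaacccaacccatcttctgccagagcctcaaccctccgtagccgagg
Napa (chr1:85915185-85915454, GRCr8, plus strand): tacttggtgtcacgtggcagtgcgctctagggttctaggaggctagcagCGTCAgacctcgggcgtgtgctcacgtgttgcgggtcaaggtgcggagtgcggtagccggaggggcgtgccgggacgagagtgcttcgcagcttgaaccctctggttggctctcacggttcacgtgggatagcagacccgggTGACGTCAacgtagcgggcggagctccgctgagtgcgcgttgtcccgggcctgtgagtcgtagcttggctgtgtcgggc

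With the base of the annotated start counted as 0, the cores of Syt4 begin at -12 and -1 and that of Rab3a at -72. Ptprn has cores at -168 and -131, and Rab3b, which fell, has them at -226 and -202. Cores were also found in Unc13a, Cplx1, Vamp2, Cplx2 and Rph3al. After 16 h of FSK in WT cells, 4 of the 10 genes with a core were called higher (Syt4, Rab3a, Ptprn, Cplx1), 3 were called lower (Rab3b, Cplx2, Rph3al) and 3 were not called by limma (Unc13a, Vamp2 and Napa with the full element), while 10.3% of all tested symbols were called higher and 24.1% lower there. With centring, spike-in scaling, edgeR or DESeq2, each of these 3 was called higher. Here and below DESeq2 was run with size factors from the spike-ins, so it and spike-in scaling are not independent. These matches are letters in a window and not shown binding sites.

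The exocytosis genes were expressed at high levels in INS-1 cells. The median of their means over the 28 libraries was 84 TPM, against 27.3 TPM for all symbols tested, and 23 of the 34 lay above that value. Ptprn (chr9:82447133-82461741, minus strand in rn6), which encodes a phosphatase-like protein of the granule membrane, led with a mean of 528 TPM, followed by the synaptotagmins Syt5 (361 TPM) and Syt7 (322 TPM), which sense calcium, and the vesicle SNARE Vamp8 (309 TPM). The SNARE gene Snap25 had a mean of 265 TPM, and its partners Vamp2 and Stx1a had means of 160 and 75.4 TPM. Among the low members, the calcium sensor Doc2b had a mean of 2.61 TPM, Rab27b of 3.65 TPM and rabphilin Rph3a of 4.97 TPM. Rph3a ranged from 0.047 to 19.7 TPM. It was under 1 TPM in every WT library and reached the mean of at least 1 TPM needed for the test only through Med14 S983A, so its calls between the genotypes come from a gene admitted by the group where it was high.

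**Figure D1:**
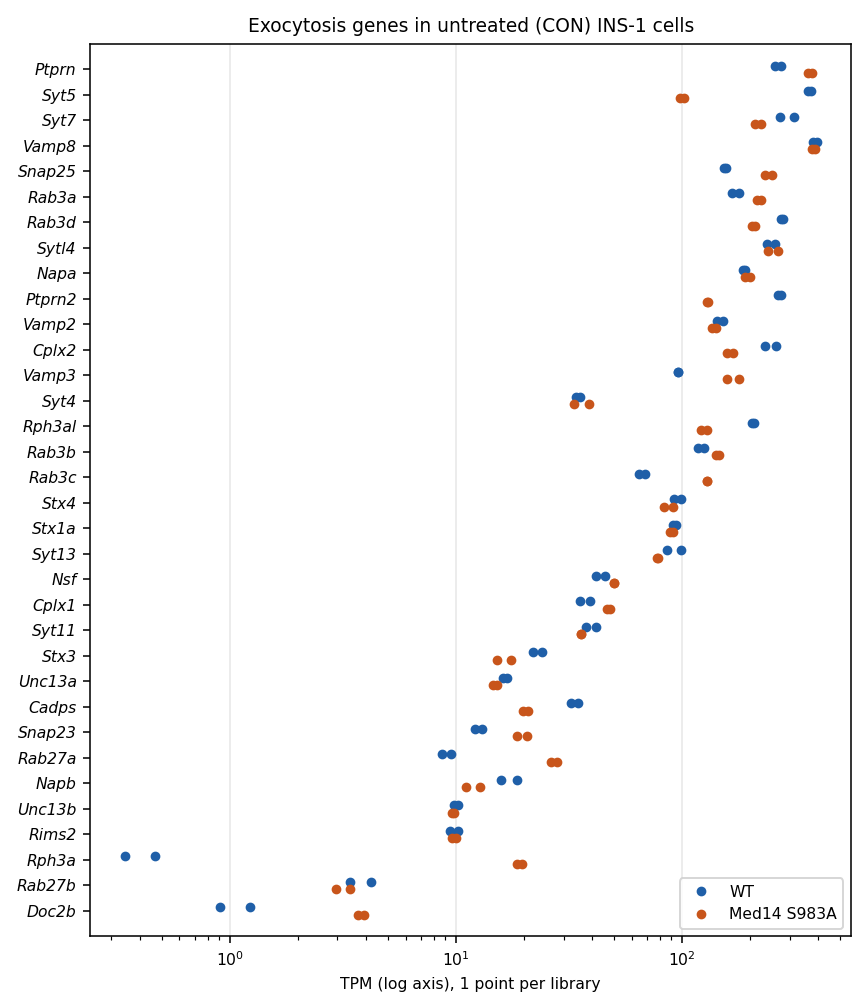
Levels of the 34 exocytosis genes in untreated (CON) cells, in TPM on a log axis, with 1 point per library (blue WT, orange Med14 S983A, 2 libraries each), ordered by mean level over all 28 libraries. Most pairs of colours overlap or nearly touch, while Rph3a, Rab27a, Doc2b and Syt5 lie far apart.

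In untreated cells, Med14 S983A differed from WT in 12 of the 34 genes. A gene was called here and below at an adjusted p under 0.05 (limma on log2(TPM + 1), Benjamini-Hochberg over all tested symbols) and a fold above 1.5, and differences are given on the log2(TPM + 1) scale. Called and not called refer to this test unless another is named. Higher in Med14 S983A were Rph3a (3.84), Rab27a (1.48), Doc2b (1.22), Rab3c (0.95), Vamp3 (0.81), Snap25 (0.64) and Snap23 (0.60), 7 genes or 20.6% of the members against 8.29% of all tested symbols. This count includes Rph3a, which was admitted through its level in Med14 S983A and is no support for the share. Lower were Syt5 (-1.85), Ptprn2 (-1.04), Rph3al (-0.71), Cadps (-0.69) and Cplx2 (-0.59), 5 genes or 14.7% against 11.1%. The largest adjusted p among the 12 was 4.86e-08, and the median difference was -0.03 for the members and -0.07 for all symbols.

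Rph3a (chr12:41073824-41148489, plus strand; positions of genes are in rn6), an effector of Rab3 and Rab27, stood at 0.468 and 0.344 TPM in the WT CON libraries and at 19.7 and 18.7 TPM in the Med14 S983A CON libraries, a difference of 3.84 (SE 0.08). Rab27a (chr8:79722334-79776222, plus strand), the GTPase that recruits granules to the membrane, stood at 9.49 and 8.69 TPM in WT and 27.9 and 26.3 TPM in Med14 S983A. Doc2b was low in both, at 0.909 and 1.23 TPM in WT and 3.94 and 3.70 TPM in Med14 S983A. None of these 3 genes overlapped between the genotypes. With 2 libraries a group, values often lie apart by chance, and the share of all symbols without overlap was not counted. Statements on overlap here and below therefore only describe the libraries. In the other direction, Syt5 (chr1:72860218-72867930, plus strand), a calcium sensor of the granule, stood at 372 and 361 TPM in WT and 98.7 and 103 TPM in Med14 S983A (-1.85, SE 0.04). Ptprn2 (chr6:144384773-145133034, plus strand), the phogrin gene of the granule membrane, stood at 274 and 266 TPM in WT and 131 and 129.7 TPM in Med14 S983A (-1.04, SE 0.04). Both genes were lower in both mutant libraries than in either WT library.

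The central SNARE genes differed less. Snap25 (chr3:129697679-129788417, plus strand) stood at 157 and 153 TPM in WT CON and 251 and 234 TPM in Med14 S983A CON, whereas Stx1a (-0.05) and Vamp2 (-0.09) were not called. Snap23, the widely expressed relative of Snap25, stood close to the fold limit and its call was lost at 0.53 without Med14 S983A CON replicate 1 and at 0.56 without WT CON replicate 1. The call of the complexin gene Cplx2 was lost in the same way, at -0.54 without Med14 S983A CON replicate 1 and -0.51 without WT CON replicate 1. With scaling on the spike-ins, 8 genes were higher and 2 lower, and Rph3al (-0.51), Cadps (-0.50) and Cplx2 (-0.39) no longer passed the fold limit.

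Some of the genotype differences were shared with genes that lie next to the member on the chromosome (rn6). Each member was set beside its 25 nearest tested symbols on either side. Vamp3 (0.81) lay in a stretch whose median difference was 0.87, with 38 of 50 neighbours called higher in Med14 S983A. The neighbours of Ptprn had a median of 0.92 with 40 of 50 called higher, while Ptprn itself was at 0.47 and not called, or at 0.67 and called with spike-in scaling. Cplx2 (-0.59) lay among neighbours with a median of -0.64, of which 28 of 50 were called lower, and Cadps (-0.69) among neighbours with a median of -0.32, of which 18 were called lower. Rph3a went against its surroundings, whose median was -0.60 with 25 of 50 called lower. For Syt5, Rab27a, Doc2b, Rab3c, Snap25, Snap23 and Rph3al the neighbours' median was -0.11 or nearer to 0, and for Ptprn2, with 28 neighbours, it was -0.20. Doc2b and Rph3al are separated by 36761 bases on chromosome 10, and they differed between the genotypes in opposite directions. The part of the surrounding regions in the members' differences was not tested.

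**Figure D2:**
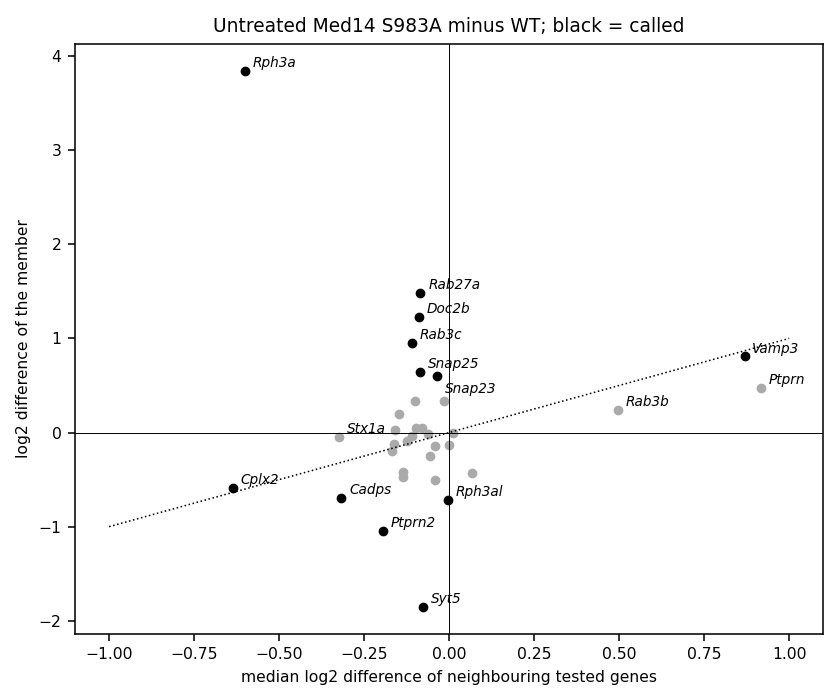
Untreated Med14 S983A minus WT on the log2(TPM + 1) scale for each of the 34 genes (vertical axis) against the median of its tested neighbours, 25 on either side (horizontal axis), with called genes in black and equality as the dotted line. Vamp3 and Cplx2 lie near the line, and Rph3a, Rab27a, Doc2b and Syt5 lie far from it.

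After 1 h of treatment, Syt4 was called higher under both agents and in both genotypes. Syt4 (chr18:24172580-24181989, minus strand) encodes an atypical synaptotagmin of vesicle membranes. It stood at 35.6 and 34.1 TPM in WT CON and 38.9 and 33.3 TPM in Med14 S983A CON. After 1 h of Ex-4 it stood at 74.1 and 80.1 TPM in WT (1.12, SE 0.07) and 102 and 102 TPM in Med14 S983A (1.48, SE 0.07). No treated library overlapped with CON. After 1 h of FSK it stood at 157 and 168 TPM in WT (2.19, SE 0.07) and 229 and 272 TPM in Med14 S983A (2.76, SE 0.07). The difference between genotypes at 1 h was not tested.

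Syt4 was the sole member called after 1 h of Ex-4, 2.94% of the members against 2.87% of all symbols in WT and 3.04% in Med14 S983A. After 1 h of FSK, 2 members were called in WT (5.88%, against 7.47% of all symbols) and 1 in Med14 S983A (against 10.4%). The other called gene in WT was Snap23, which stood at 12.2 and 13.03 TPM in CON and 7.87 and 8.25 TPM after 1 h of FSK (-0.59). That call was lost at -0.55 without WT CON replicate 2, at -0.56 without WT 1 h FSK replicate 1, at -0.46 with centring on the library median and at -0.54 with spike-in scaling.

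Prolonged Ex-4 raised a small group of granule and fusion genes in WT cells. At 8 h the genes higher were Ptprn (0.98), Syt4 (0.91), Snap25 (0.83), Rab3a (0.68) and Syt5 (0.60), 14.7% of the members against 3.61% of all symbols, and those lower were Cadps (-1.21), Rab3b (-0.67), Rph3al (-0.66) and Cplx2 (-0.64), 11.8% against 5.99%. At 16 h the genes higher were Ptprn (1.31), Rab3a (1.05) and Snap25 (0.72), 8.82% against 3.53%, and 0 were called lower, against 8.28% of all symbols (limma). At an unadjusted p under 0.05, 11 members were lower at 16 h, and edgeR and DESeq2 each called 0 lower. Without WT CON replicate 2, or without WT 16 h Ex-4 replicate 1, 5 members were called at 16 h.

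Ptprn stood at 274 and 259 TPM in WT CON, 533 and 516 TPM at 8 h and 644 and 681 TPM at 16 h of Ex-4. Rab3a (chr16:20435099-20439206, minus strand), a GTPase on the granule, stood at 179.8 and 167 TPM in CON, 272 and 286 TPM at 8 h and 355 and 365 TPM at 16 h. Snap25 stood at 259.9 and 293 TPM at 8 h and 256 and 256 TPM at 16 h. All treated libraries of these 3 genes lay above both CON libraries, and the differences at 16 h were 1.31 (SE 0.04), 1.05 (SE 0.04) and 0.72 (SE 0.05). Syt4 was back at 39.1 and 40.2 TPM at 16 h (0.18, not called), after 65.8 and 67.3 TPM at 8 h. Syt5 stood at 553 and 556 TPM at 8 h and 534 and 551 TPM at 16 h, just under the fold limit at the later time (0.56), where it was called with centring (0.75), spike-in scaling (0.89), edgeR (0.72) and DESeq2 (0.89). Doc2b, not called by limma, was called higher at 16 h with a pseudocount of 0.1 (0.88), centring (0.75), spike-in scaling (0.75), edgeR (1.07) and DESeq2 (1.26). Unc13a was called higher at 16 h with centring (0.59), spike-in scaling (0.71) and DESeq2 (0.74). Vamp2 was called higher at 16 h with spike-in scaling (0.61) and DESeq2 (0.61).

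The genes lowered at 8 h of Ex-4 were a priming factor, a Rab GTPase, a Rab effector and a complexin. Cadps (chr15:15275489-15667779, plus strand), which encodes the priming factor CAPS1, stood at 34.7 and 32.4 TPM in WT CON, 14.2 and 13.6 TPM at 8 h and 22.01 and 24.3 TPM at 16 h. Rab3b (chr5:128501833-128568167, plus strand) stood at 126 and 118 TPM in CON, 75.1 and 77.3 TPM at 8 h and 107 and 107 TPM at 16 h. Rph3al (chr10:63989643-64108554, minus strand) stood at 209 and 204, 136 and 124 and 188 and 192 TPM in the same order. The 16 h means thus lay between those of CON and 8 h for these 3 genes, and the difference between 8 h and 16 h was not tested. With centring on the library median, or with spike-in scaling, the split at 8 h was 6 higher and 1 lower: Rab3b (-0.55 and -0.51), Rph3al (-0.54 and -0.50) and Cplx2 (-0.52 and -0.47) no longer passed the fold limit. The Cplx2 call was lost also at -0.56 without WT CON replicate 1 and at -0.56 without WT 8 h Ex-4 replicate 2, and that of Syt5 at 0.58 without WT CON replicate 2. Over all symbols the median difference was -0.10 at 8 h and -0.16 at 16 h, and spike-in scaling moved the latter to 0.14.

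FSK changed 18 members at 8 h and 16 at 16 h in WT cells, against 9 and 3 after Ex-4. The 8 genes higher at 8 h (23.5% of the members, against 8.77% of all symbols) were Syt4 (1.97), Snap25 (1.43), Syt7 (0.89), Syt5 (0.88), Unc13a (0.88), Ptprn (0.83), Rab3a (0.73) and Nsf (0.70). The 10 genes lower (29.4%, against 34.8%) were Rph3al (-3.11), Cadps (-2.99), Cplx2 (-2.52), Rab3b (-1.90), Stx4 (-1.20), Vamp8 (-0.99), Napb (-0.79), Syt11 (-0.69), Ptprn2 (-0.68) and Syt13 (-0.65). At 16 h, 9 genes were higher (26.5%, against 10.3%): Syt4 (1.88), Doc2b (1.58), Ptprn (1.51), Snap25 (1.28), Rab3a (1.10), Syt5 (0.78), Unc13b (0.76), Stx3 (0.68) and Cplx1 (0.60). The 7 genes lower at 16 h (20.6%, against 24.1%) were Rab3b (-2.71), Rph3al (-1.99), Cadps (-1.97), Cplx2 (-1.91), Ptprn2 (-1.21), Syt13 (-1.12) and Syt11 (-0.94). The largest adjusted p was 1.87e-06 at 8 h and 1.25e-08 at 16 h. Syt7, Nsf and Snap23 were not called by limma at 16 h. They were called higher there with centring (0.80, 0.77 and 0.795), spike-in scaling (0.92, 0.89 and 0.90), edgeR (0.74, 0.72 and 0.77) and DESeq2 (0.92, 0.90 and 0.96).

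Among the SNARE genes, Snap25 stood at 432 and 405 TPM at 8 h and 372 and 385 TPM at 16 h of FSK, above both CON libraries. Stx4, a syntaxin of the plasma membrane, stood at 99.04 and 92.4 TPM in CON, 44.3 and 38.04 TPM at 8 h and 92.1 and 88.6 TPM at 16 h. Its fall was thus called at 8 h and not called at 16 h (-0.08). Stx3, which is known for newcomer granules in beta cells, was near CON at 8 h (0.03) and stood at 38.3 and 36.6 TPM at 16 h against 24.1 and 21.98 TPM in CON. Vamp2 and Stx1a, the other partners of Snap25, were called at neither time by limma. At 16 h, Vamp2 was just under the fold limit (0.56) and was called higher with centring (0.80), spike-in scaling (0.93), edgeR (0.75) and DESeq2 (0.93). Nsf, the ATPase that dismantles spent SNARE complexes, stood at 45.8 and 41.7 TPM in CON and 70.6 and 72.4 TPM at 8 h.

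Among the calcium sensors, Syt4 stayed high, at 129.5 and 149.9 TPM at 8 h and 129 and 134 TPM at 16 h. Syt13, an atypical synaptotagmin, stood at 99.03 and 86.5 TPM in CON, 59.7 and 57.5 TPM at 8 h and 42.6 and 41.2 TPM at 16 h. Doc2b stood at 1.57 and 1.59 TPM at 8 h and 5.07 and 5.24 TPM at 16 h and was called by limma at the later time only, while centring (0.71) and edgeR (0.86) called it at 8 h too. The complexins, which hold assembled SNARE complexes until calcium enters, moved apart. Cplx2 stood at 261 and 233 TPM in CON and 42.2 and 42.2 TPM at 8 h, and Cplx1 at 39.4 and 35.5 TPM in CON and 58.03 and 56.7 TPM at 16 h.

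With Cplx2, the genes that fell most were the Rab GTPase gene Rab3b, the effector gene Rph3al and the priming factor gene Cadps. Rph3al stood at 23.1 and 22.9 TPM at 8 h and 52.8 and 49.7 TPM at 16 h of FSK, against over 200 TPM in both CON libraries. Rab3b stood at 31.5 and 32.8 TPM at 8 h and 17.9 and 17.7 TPM at 16 h, and Cadps at 3.42 and 3.24 TPM and 7.58 and 8.01 TPM. None of these libraries overlapped with CON. Rab3a went the other way, to 289 and 286 TPM at 8 h and 367 and 378 TPM at 16 h. The Munc13 genes, whose products open syntaxin during priming, were called higher by limma at 1 time each. Unc13a was at 0.88 at 8 h and, not called, at 0.41 at 16 h, where it was called with centring (0.66), spike-in scaling (0.77), edgeR (0.62) and DESeq2 (0.80). Unc13b was at 0.15 at 8 h, not called, and 0.76 at 16 h, and the difference between the times was not tested. On the granule membrane, Ptprn stood at 770.0 and 754 TPM at 16 h, while Ptprn2 stood at 114 and 117 TPM, against 274 and 266 TPM in CON.

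The median over all symbols was -0.34 at 8 h and -0.20 at 16 h of FSK in WT, and that of the members -0.23 and -0.05. Relative to the library median, 12 members rose and 6 fell at 8 h, while 15 rose and 7 fell at 16 h. With spike-in scaling the split was 8 to 10 at 8 h and 15 to 6 at 16 h, and the median over all symbols at 16 h was then 0.14. The 8 h falls of Syt11 (-0.30), Syt13 (-0.26), Napb (-0.40) and Ptprn2 (-0.29) did not pass the fold limit after centring. That of Syt13 was lost also at -0.55 without WT CON replicate 1, the 16 h fall of Syt11 was lost at -0.58 with spike-in scaling, and the 16 h rise of Cplx1 was lost at 0.53 without WT CON replicate 2.

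**Figure D3:**
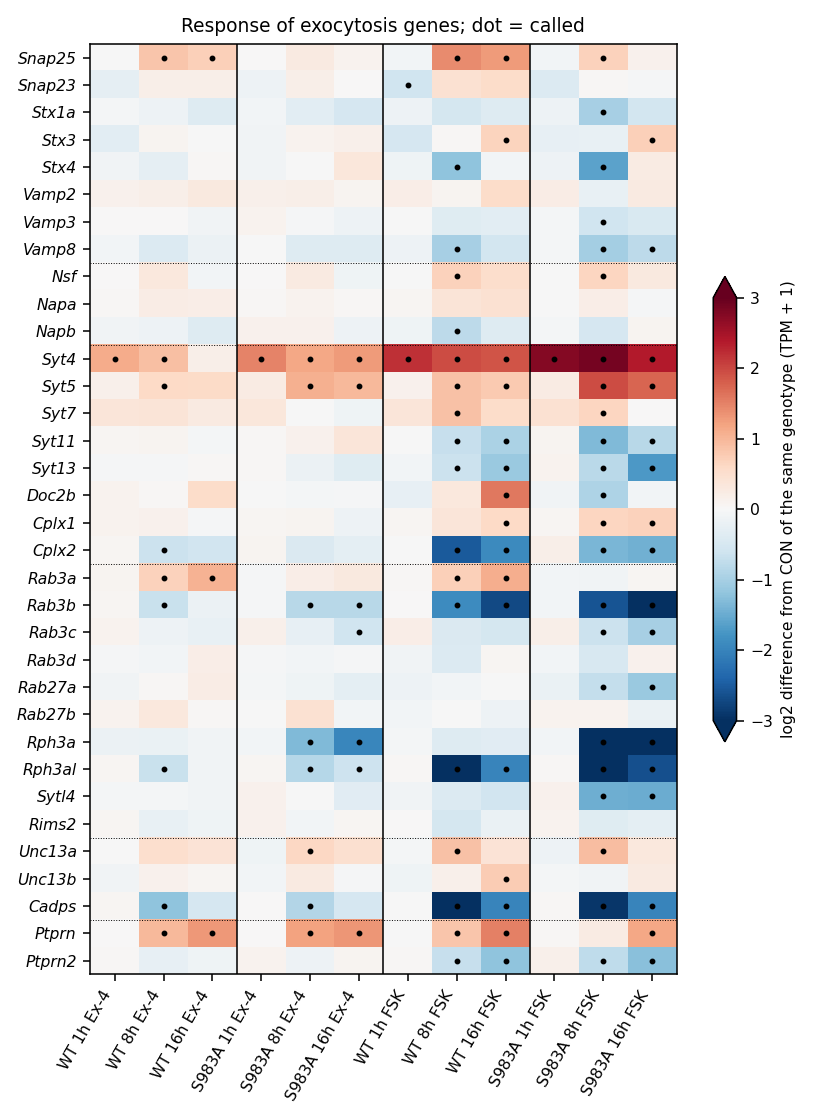
Log2 difference from CON of the same genotype, on the log2(TPM + 1) scale, for the 34 exocytosis genes (rows, by role) in the 12 treatment groups (columns), with red higher, blue lower, the scale ending at 3 in either direction and a dot for each called difference. Syt4 is red in nearly every column, Rab3b, Rph3al, Cadps and Cplx2 are blue with a dot at 8 and 16 h of FSK in both genotypes, and Rph3a is dark blue in Med14 S983A.

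In Med14 S983A cells, Ex-4 changed 8 members at 8 h and 7 at 16 h. The genes higher at 8 h were Ptprn (1.21), Syt4 (1.15), Syt5 (1.06) and Unc13a (0.62), 11.8% of the members against 3.21% of all symbols, and those lower were Rph3a (-1.32), Cadps (-0.88), Rph3al (-0.86) and Rab3b (-0.83), 11.8% against 3.09%. After 16 h the genes higher were Ptprn (1.33), Syt4 (1.28) and Syt5 (0.97), 8.82% against 4.73%, and those lower were Rph3a (-1.96), Rab3b (-0.83), Rph3al (-0.61) and Rab3c (-0.59), 11.8% against 7.15%. Ptprn stood at 361 and 378 TPM in CON and 925 and 935 TPM at 16 h. Syt4 stood at 80.9 and 81.2 TPM at 8 h and 94.7 and 83.03 TPM at 16 h, above the CON libraries at both times. Rab3a (0.30) and Snap25 (0.11), both raised in WT, were not called. Unc13a, not called by limma at 8 h of Ex-4 in WT, was called higher there with centring (0.63), spike-in scaling (0.67), edgeR (0.63) and DESeq2 (0.70).

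The 16 h split was 3 higher and 2 lower after centring and 3 higher and 6 lower with spike-in scaling. The fall of Rab3c was lost at -0.58 without Med14 S983A 16 h Ex-4 replicate 2 and at -0.53 after centring. That of Rph3al was lost at -0.56 without Med14 S983A CON replicate 2, at -0.56 without Med14 S983A 16 h Ex-4 replicate 1 and at -0.55 after centring.

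FSK changed 23 members at 8 h and 17 at 16 h in Med14 S983A cells, most of them downward. The 7 genes higher at 8 h (20.6%, against 11.6% of all symbols) were Syt4 (2.87), Syt5 (1.96), Unc13a (0.93), Snap25 (0.68), Cplx1 (0.64), Syt7 (0.64) and Nsf (0.63). Of the 16 lower (47.1%, against 34.5%), the 12 largest falls were in Rph3al (-3.48), Rph3a (-3.37), Cadps (-2.91), Rab3b (-2.59), Stx4 (-1.61), Sytl4 (-1.48), Cplx2 (-1.38), Syt11 (-1.32), Vamp8 (-1.02), Stx1a (-0.999), Doc2b (-0.93) and Syt13 (-0.80). The remaining 4, Ptprn2 (-0.75), Rab27a (-0.72), Rab3c (-0.64) and Vamp3 (-0.59), lay nearer the fold limit. At 16 h, 5 genes were higher (14.7%, against 12.2%): Syt4 (2.39), Syt5 (1.75), Ptprn (1.16), Stx3 (0.72) and Cplx1 (0.70). The 12 lower (35.3%, against 21.1%) were Rph3a (-3.82), Rab3b (-3.07), Rph3al (-2.64), Cadps (-1.97), Syt13 (-1.72), Sytl4 (-1.48), Cplx2 (-1.44), Ptprn2 (-1.26), Rab27a (-1.11), Rab3c (-0.99), Syt11 (-0.83) and Vamp8 (-0.80).

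Of the 10 Rab and effector genes, 6 were lower at both times in Med14 S983A (beside 34.5% and 21.1% of all symbols), and 2 were lower and 1 higher at both times in WT (beside 34.8% and 24.1% lower), a difference in counts that was not tested. The 6 hold Rph3a, which could not fall far from under 1 TPM in WT, and Rab3c and Rab27a, whose 8 h calls were lost after centring. In Med14 S983A, Rph3a stood at 0.999 and 0.916 TPM at 8 h, above both WT CON libraries, and at 0.489 and 0.364 TPM at 16 h, near them. Sytl4, the granuphilin gene of the docking step, stood at 265 and 242 TPM in CON, 90.5 and 90.6 TPM at 8 h and 89.8 and 90.8 TPM at 16 h, while the WT libraries stood at 259 and 237 TPM in CON and 171 and 161 TPM at 16 h (-0.58, not called). Rab27a stood at 12.04 and 12.1 TPM at 16 h, against 27.9 and 26.3 TPM in CON, and at 9.40 and 8.63 TPM in WT. Syt13 reached 21.97 and 23.9 TPM at 16 h, from 78.5 and 77.5 TPM in CON. The Med14 S983A libraries thus lay apart from their CON for all 4 genes.

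Syt5 stood at 395 and 392 TPM at 8 h and 348 and 335 TPM at 16 h of FSK in Med14 S983A, against 98.7 and 103 TPM in CON, and so reached about the level of untreated WT cells. The FSK libraries of WT stood higher, at 657 and 698 TPM at 8 h and 630 and 630 TPM at 16 h. In Med14 S983A, Rab3b fell to 14.8 and 18.03 TPM, Rph3al to 18.8 and 19.7 TPM and Cadps to 4.17 and 4.72 TPM at 16 h. For these 3 genes the levels after FSK were low in both genotypes. The split at 8 h was 7 higher and 11 lower after centring and 4 higher and 16 lower with spike-in scaling, and the median over all symbols was -0.28. Centring ended the 8 h falls of Vamp3 (-0.26), Syt13 (-0.47), Rab3c (-0.31), Rab27a (-0.39) and Ptprn2 (-0.42). Spike-in scaling ended the 8 h rises of Syt7, Cplx1 and Nsf, each at 0.55, and the 16 h fall of Vamp8 (-0.55). The 8 h call of Vamp3 was lost at -0.50 without Med14 S983A CON replicate 1 and at -0.57 without Med14 S983A 8 h FSK replicate 1, and without the latter those of Syt7 (0.56) and Nsf (0.58) were lost too. Without the deepest library, Med14 S983A 8 h FSK replicate 2, 23 members were called.

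**Figure D4:**
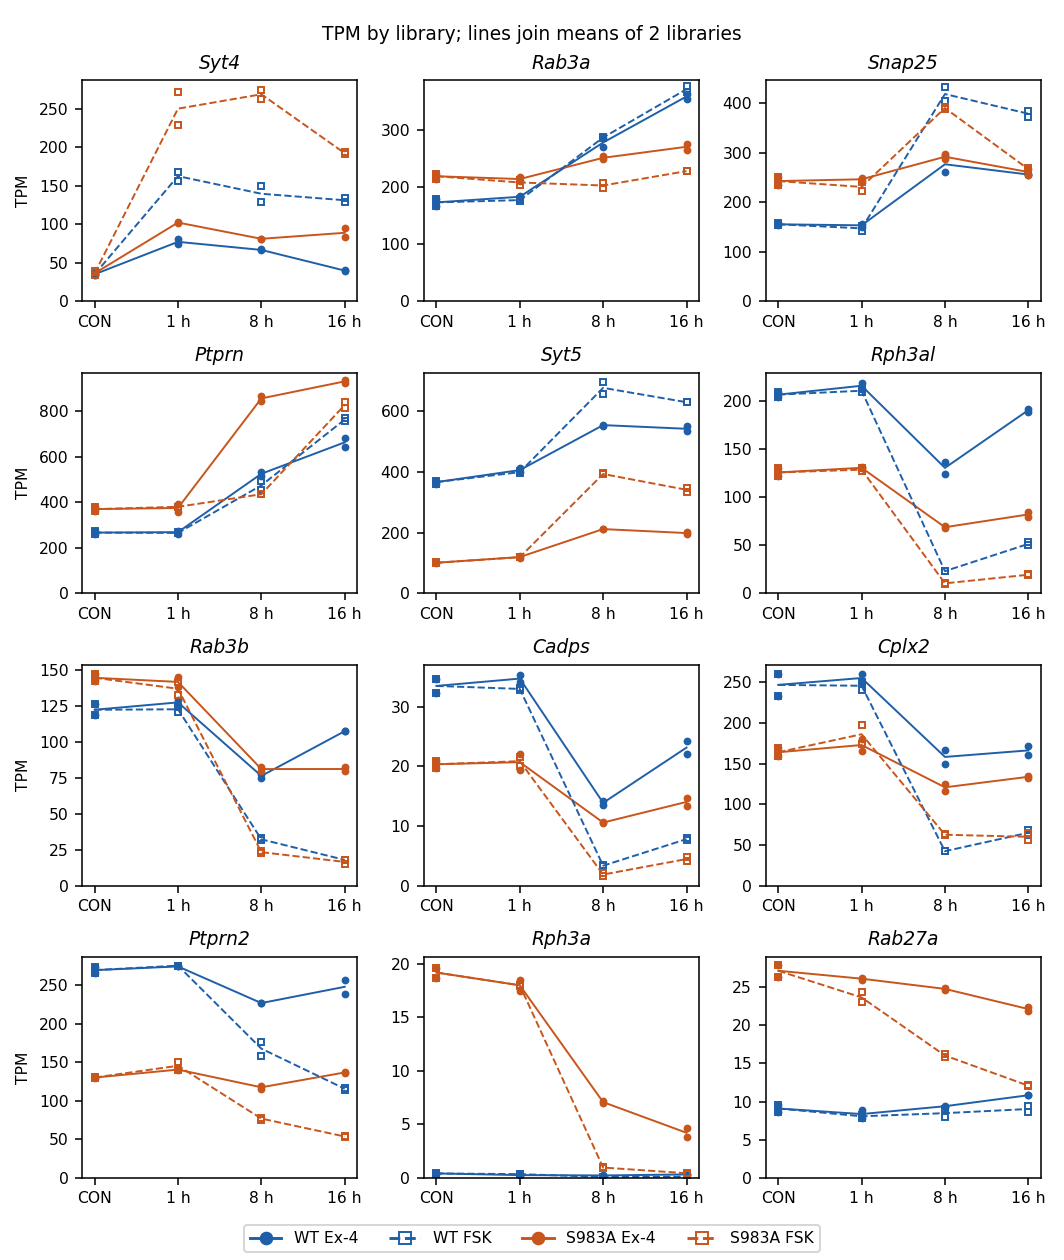
TPM (linear axes from 0) of 12 exocytosis genes at CON and after 1, 8 and 16 h, with 1 symbol per library and lines through the means of 2 libraries (blue WT, orange Med14 S983A, filled circles Ex-4, open squares FSK). At 16 h of FSK the Rab3a libraries sit at 367 and 378 TPM in WT, all above those of Med14 S983A, Rph3al, Rab3b and Cadps drop by 8 h of FSK in both, and Rph3a is near 0 in all WT libraries.

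The difference between the genotypes in their response was tested as an interaction, the response of Med14 S983A minus that of WT. The same CON libraries enter all 4 interactions and the genotype difference in CON, so these values are not independent. Each count and share of lower members below includes Rph3a, which was admitted through its level in Med14 S983A. It had little room to fall in WT on the log2(TPM + 1) scale. It is therefore no support for these shares, which were not computed without it. For Ex-4 at 8 h, 0 members were higher (limma; 1.98% of all symbols; 5 members were above 0 at an unadjusted p under 0.05, and edgeR and DESeq2 each called 0 higher) and 1 was lower (2.94%, against 0.798%), Rph3a (-1.12). Snap25, not called by limma, was called lower there with centring (-0.65), spike-in scaling (-0.71), edgeR (-0.64) and DESeq2 (-0.72). Rab3a was called lower there with spike-in scaling (-0.63) and DESeq2 (-0.63). Without WT 8 h Ex-4 replicate 1, Med14 S983A CON replicate 2 or Med14 S983A 8 h Ex-4 replicate 1, 2 members were called. For Ex-4 at 16 h, 1 was higher (2.94%, against 5.43%), Syt4 (1.10), and 5 were lower (14.7%, against 1.81%): Rph3a (-1.86), Rab3a (-0.74), Rab3b (-0.64), Snap25 (-0.61) and Doc2b (-0.59). For FSK at 8 h, 3 were higher (8.82%, against 7.65%), Cplx2 (1.14), Syt5 (1.07) and Syt4 (0.90), and 9 lower (26.5%, against 6.21%), Doc2b (-1.26), Sytl4 (-1.08), Rab3a (-0.84), Snap25 (-0.74), Rab3b (-0.69), Syt11 (-0.63), Rab27a (-0.63) and Ptprn (-0.59), as well as Rph3a (-2.985). For FSK at 16 h, 1 was higher (2.94%, against 10.6%), Syt5 (0.97), and 9 lower (26.5%, against 6.40%): Rph3a (-3.48), Doc2b (-1.67), Snap25 (-1.14), Rab27a (-1.10), Rab3a (-1.04), Sytl4 (-0.90), Rph3al (-0.65), Syt13 (-0.60) and Snap23 (-0.59).

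Rab3a showed the difference under both agents. In WT it went from 179.8 and 167 TPM in CON to 355 and 365 TPM with Ex-4 and 367 and 378 TPM with FSK at 16 h. In Med14 S983A it went from 215 and 224 TPM to 266 and 277 TPM and 229 and 228 TPM. The interaction was -0.74 (SE 0.05) for Ex-4 and -1.04 (SE 0.05) for FSK. Snap25 began higher in Med14 S983A, at 251 and 234 TPM, and stood there at 268 and 254 TPM with Ex-4 and 268 and 265 TPM with FSK at 16 h, whereas the WT libraries rose to 256 and 256 and 372 and 385 TPM. Its 16 h Ex-4 libraries therefore overlapped between genotypes while the CON libraries did not. The Ex-4 call for Snap25 was lost at -0.57 without Med14 S983A 16 h Ex-4 replicate 2 and at -0.56 without Med14 S983A CON replicate 1, and the FSK call (-1.14, SE 0.07) was kept without any single library.

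Syt4 differed in the other direction. With Ex-4 at 16 h it stood at 39.1 and 40.2 TPM in WT and 94.7 and 83.03 TPM in Med14 S983A, from CON levels that overlapped (35.6 and 34.1 TPM and 38.9 and 33.3 TPM), and the interaction was 1.10 (SE 0.11). With FSK at the same time the interaction of Syt4 was 0.50 and not called. Doc2b rose to 5.07 and 5.24 TPM in WT at 16 h of FSK and stood at 4.02 and 3.08 TPM in Med14 S983A, against 3.94 and 3.70 TPM in CON. At these low levels the fold on the log2(TPM + 1) scale understates the change. The Ex-4 call of Doc2b (adjusted p = 0.00478, limma) was lost at -0.47 without WT CON replicate 1, at -0.49 without WT 16 h Ex-4 replicate 2, at -0.55 without Med14 S983A CON replicate 1 and at -0.58 without Med14 S983A 16 h Ex-4 replicate 1.

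Rph3a entered the test through its level in Med14 S983A and, at under 1 TPM, had little room for a fall in WT on this scale, so its interactions are given as a description. Its 8 h Ex-4 interaction was not called by edgeR (-0.60, adjusted p = 0.240) or DESeq2 (-0.68, adjusted p = 0.464) on fragment counts. Cplx2 stood at 42.2 and 42.2 TPM in WT and 63.1 and 61.9 TPM in Med14 S983A at 8 h of FSK, from 261 and 233 TPM and 159 and 169 TPM. It thus fell in both genotypes, and less in Med14 S983A (1.14, SE 0.10). With spike-in scaling, the 16 h Ex-4 interaction had 15 members lower and 1 higher, and the median over all symbols was -0.31 in place of 0.09, and with centring it had 7 lower and 1 higher.

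Other interactions lay near the fold limit and rested on single libraries. At 8 h of FSK, Syt11 was lost at -0.57 without WT CON replicate 2, at -0.57 without WT 8 h FSK replicate 2 and at -0.58 without Med14 S983A 8 h FSK replicate 2, the deepest library. Rab27a was lost at -0.57 without WT CON replicate 2 and at -0.55 without WT 8 h FSK replicate 2. Ptprn was lost at -0.55, -0.53 and -0.56 without WT CON replicate 2, WT 8 h FSK replicate 2 and Med14 S983A CON replicate 2. For FSK at 16 h, Snap23 was lost at -0.54, -0.52, -0.51 and -0.55 without WT CON replicate 1, WT 16 h FSK replicate 2, Med14 S983A CON replicate 1 and Med14 S983A 16 h FSK replicate 1. Syt13 was lost at -0.50, -0.58 and -0.54 without WT CON replicate 2, WT 16 h FSK replicate 1 and Med14 S983A 16 h FSK replicate 1. The 16 h FSK calls of Rph3a, Doc2b, Snap25, Rab27a, Rab3a, Syt5, Sytl4 and Rph3al were kept in each of these fits.

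Ex-4 and FSK were compared directly in WT cells at matched times, at 10 nM and 10 µM, so that the comparison holds for these doses alone. At 1 h the sole called member was Syt4 (-1.07 for Ex-4 minus FSK; 2.94%, against 1.79% of all symbols). At 8 h, 8 members were higher with Ex-4 (23.5%, against 23.3%): Rph3al (2.45), Cplx2 (1.88), Cadps (1.78), Rab3b (1.22), Stx4 (0.93), Syt11 (0.77), Napb (0.63) and Syt13 (0.62). Lower with Ex-4 were Syt4 (-1.05) and Snap25 (-0.60) (5.88%, against 4.77%). At 16 h, Rab3b (2.52), Rph3al (1.87), Cadps (1.46), Cplx2 (1.34), Syt13 (1.15), Ptprn2 (1.09) and Syt11 (0.87) were higher with Ex-4 (20.6%, against 11.4%) and Syt4 (-1.70), Doc2b (-1.02), Unc13b (-0.71), Stx3 (-0.68), Cplx1 (-0.65) and Nsf (-0.60) were lower (17.6%, against 7.29%). The FSK libraries are those of the comparisons with CON, so these values are not independent of them. Rab3a (-0.05, SE 0.04) and Ptprn (-0.20, SE 0.04) were not called between the agents at 16 h, which does not show that the agents act alike on them.

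The split at 8 h was 5 higher and 5 lower after centring, which ended the calls of Syt11 (0.50), Syt13 (0.35) and Napb (0.36), and 10 higher and 1 lower with spike-in scaling, which ended that of Snap25 (-0.44). The Snap25 call was lost also at -0.51 without WT 8 h Ex-4 replicate 1 and at -0.55 without WT 8 h FSK replicate 1. At 16 h, the Nsf call was lost at -0.55 without WT 16 h Ex-4 replicate 1 and at -0.58 without WT 16 h FSK replicate 2.

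Within gene families the shares of the paralogues shifted. Among the 4 Rab3 genes, Rab3a made up 27.1% ± 0.490 (SD, n = 2) of the summed TPM in WT CON, 42.6% ± 0.0613 at 16 h of Ex-4 and 51.4% ± 0.570 at 16 h of FSK, while Rab3b went from 19.1% ± 0.215 to 2.46% ± 0.0392. In Med14 S983A, Rab3c took 18.5% ± 0.363 in CON, against 10.4% ± 0.0753 in WT. Between the complexins, Cplx2 made up 86.8% ± 0.0585 in WT CON and 46.5% ± 0.166 at 8 h of FSK, so that Cplx1 became the more abundant of the pair there. In Med14 S983A, Cplx2 went from 77.5% ± 1.11 to 43.5% ± 1.37 at 16 h of FSK.

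Ptprn and Ptprn2 were about equal in WT CON, where Ptprn made up 49.7% ± 0.480, and it was at 72.8% ± 0.242 with Ex-4 and 86.8% ± 0.383 with FSK at 16 h. In Med14 S983A it stood at 73.9% ± 0.742 in CON and 93.9% ± 0.136 at 16 h of FSK. Among the 5 synaptotagmins, Syt5 led in WT CON with 44.4% ± 1.76, whereas Syt7 led in Med14 S983A CON with 46.5% ± 1.20 and Syt5 made up 21.5% ± 0.298. Syt4 took 10.5% ± 0.315 of the family in WT and 24.2% ± 0.605 in Med14 S983A at 16 h of FSK. Of the Snap25 and Snap23 sum, Snap25 made up 92.5% ± 0.424 in WT CON, the lowest of the 14 groups. These shares are descriptions and were not tested.

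**Figure D5:**
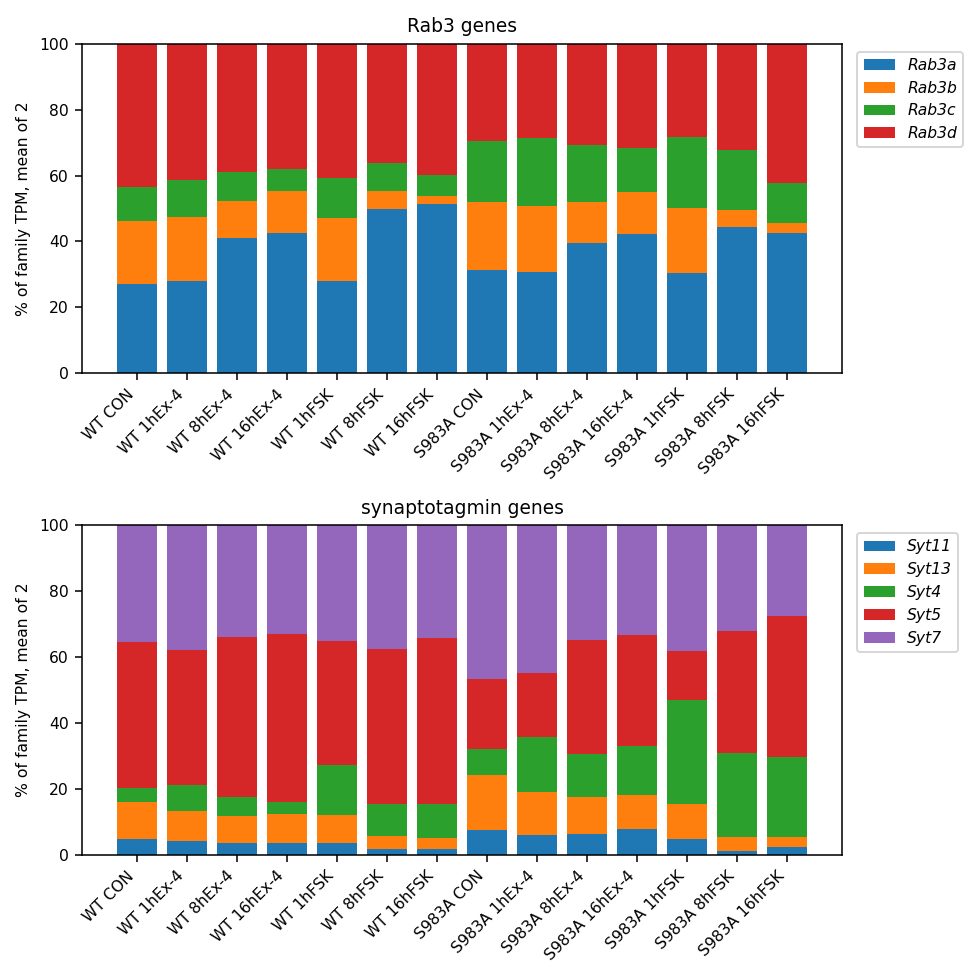
Share of the summed TPM (percent, mean of 2 libraries, bars from 0 to 100) taken by each of 4 Rab3 genes (top) and 5 synaptotagmin genes (bottom) in the 14 groups. The Rab3b share shrinks and the Rab3a share grows after 8 and 16 h, most of all with FSK, and the Syt4 share is widest in Med14 S983A with FSK.

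Across the 12 treatments, 11 of the 34 genes (32.4%) were called in the upward direction alone and 17 (50%) in the downward direction alone, beside 17.9% and 46.9% of all tested symbols. Doc2b was called in both, higher at 16 h of FSK in WT and lower at 8 h of FSK in Med14 S983A. Vamp2, Rab3d, Rab27b, Napa and Rims2 were called by limma in none of the 20 contrasts, with differences between -0.53 and 0.56. Each was called under some alternative. With edgeR, Vamp2 (0.75) and Napa (0.64) were higher at 16 h of FSK in WT and Rab27b (0.60) was higher in Med14 S983A after 8 h of Ex-4. With DESeq2, Rims2 (-0.59) was lower at 8 h of FSK in WT, and Rab3d (-0.66) was lower in the 16 h Ex-4 interaction. Vamp2, the main SNARE of the insulin granule, stood at 152 and 143 TPM in WT CON and 216 and 220.1 TPM at 16 h of FSK, just under the fold limit (0.56, SE 0.05). Rab3d stood at 282 and 276 TPM in WT CON and was among the most abundant Rab3 genes. Napa, the alpha-SNAP gene, had the smallest ratio of highest to lowest library of the 34 genes, 1.39, from 186 to 259 TPM. Rims2, the scaffold that binds Rab3 and the product of Rapgef4, ranged from 6.39 to 11.3 TPM. Stx1a was called by limma in a single contrast, 8 h of FSK in Med14 S983A, at 44.7 and 44.4 TPM against 88.3 and 91.9 TPM in CON.

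A further 53 exocytosis genes outside the list were followed in the same fit, of which 50 had a row and 37 were tested. In WT, 4 were lower at 8 h of Ex-4, Syt12 (-0.98), Rimbp2 (-0.80), Pclo (-0.64) and Syt9 (-0.63), and 4 at 16 h, Syt9 (-0.97), Myo5a (-0.83), Rims3 (-0.69) and Stxbp5l (-0.64), beside 5.99% and 8.28% of all symbols lower. After 16 h of FSK, 2 were higher, Exoc6 (0.98) and Myrip (0.70), and 12 lower, with the largest falls in Syt12 (-1.94), Rimbp2 (-1.87), Syt9 (-1.38), Rapgef4 (-1.25) and Pclo (-1.11). Of all symbols, 10.3% were higher and 24.1% lower there. Rapgef4 encodes the cAMP-regulated exchange factor that acts in granule priming, Rimbp2 a scaffold that ties calcium channels to release sites, and Pclo an active zone scaffold. At 8 h of FSK, 2 were higher and 16 lower in WT, beside 8.77% of all symbols higher and 34.8% lower. In Med14 S983A 19 were lower, beside 34.5%. In untreated cells, Doc2a (0.92) and Syt1 (0.79) were higher in Med14 S983A and 4 genes were lower, among them Stxbp5 (-1.01), Syt3 (-0.83) and Syt12 (-0.66) (against 8.29% and 11.1% of all symbols). The 8 exocyst genes tested, which serve tethering, held 1 call higher (Exoc6) and 1 lower (Exoc2, -0.84) at 16 h of FSK in WT.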

How the data were processed

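Total RNA of 28 INS-1 libraries (14 groups of 2) was spiked with ERCC RNA and made into directional libraries. The authors aligned reads with STAR 2.5.3a to rn6 with ERCC sequences and computed TPM over exons of RefSeq transcripts with HOMER 4.11.1, so the deposited TPM are values per length and library with no replicates pooled. The deposited counts (QoRTs 1.3.6) were used for the 92 ERCC sequences only. The strand setting of the TPM step is not given in the sources used here, so overlapping genes on opposite strands may share reads. The study's own calls came from DESeq2 1.24.0, with size factors from the ERCC spike-ins, and were not used.

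TPM of the 10275 symbols with a mean of at least 1 TPM were fitted as log2(TPM + 1) with limma 3.58.1 in R 4.3.3 (trend, 14 group means, 14 residual degrees of freedom, two-sided, Benjamini-Hochberg within each of 20 contrasts), with calls made below an adjusted p of 0.05 where the fold also passed 1.5. For symbols with several transcripts, 1676 transcripts were dropped. Whole reads could be recovered from the TPM and lengths (100% of 114296 values within 0.05 of a whole number, against 20.1% by chance), with 2 reads per fragment, and served edgeR 4.0.16 and DESeq2 1.42.0 as alternatives. DESeq2 took its size factors from the ERCC counts and so shares its normalization with the ERCC scaling named below. The fragment totals of 42551133 to 92635979 set the precision of low genes, and intervals from 2 libraries a group are wide. Other alternatives were a pseudocount of 0.1, no filter, a mean of at least 5 TPM, centring on the library median, ERCC scaling, the longest transcript, a replicate block and leaving out each library. The limma fit was tested on simulated data for 1 contrast, 16 h of Ex-4 in WT.

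The members and gene lists were chosen with earlier results of these data known. Called members were named in every comparison, up to 12 by size of the difference, and those beyond 12 were named after their values were seen. Values per library were given for the 12 members with the largest differences over the genotype, 16 h and interaction contrasts (Rph3a, Rab3b, Rph3al, Syt4, Cadps, Cplx2, Syt5, Syt13, Doc2b, Ptprn, Rab27a and Sytl4), and those of the other members were chosen after their values were seen.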

Additional observations from a re-analysis of the deposited data

Results flagged for a closer look

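The response to treatment differed between Med14 S983A and WT, by the interaction test of limma, for 29 pairs of a member and a treatment, and the values here are the response of Med14 S983A minus that of WT on the log2(TPM + 1) scale. At 8 h of Ex-4 the difference was below 0 for Rph3a (-1.12). At 16 h of Ex-4 it was above 0 for Syt4 (1.10) and below 0 for Rph3a (-1.86), Rab3a (-0.74), Rab3b (-0.64), Snap25 (-0.61) and Doc2b (-0.59). At 8 h of FSK it was above 0 for Cplx2 (1.14), Syt5 (1.07) and Syt4 (0.90) and below 0 for Rph3a (-2.985), Doc2b (-1.26), Sytl4 (-1.08), Rab3a (-0.84), Snap25 (-0.74), Rab3b (-0.69), Syt11 (-0.63), Rab27a (-0.63) and Ptprn (-0.59). At 16 h of FSK it was above 0 for Syt5 (0.97) and below 0 for Rph3a (-3.48), Doc2b (-1.67), Snap25 (-1.14), Rab27a (-1.10), Rab3a (-1.04), Sytl4 (-0.90), Rph3al (-0.65), Syt13 (-0.60) and Snap23 (-0.59). All of these share the CON libraries of both genotypes. The level of Rph3a in WT, under 1 TPM in every library, bounds how far it could fall there on this scale. The pairs of Rph3a, counted among the 29, are therefore a description only.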

How the results depend on the processing

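Of 171 called pairs of a member and a contrast, 0 changed direction under any alternative run. The pseudocount of 0.1, no filter, the mean of at least 5 TPM (155 pairs), the longest transcript and the replicate block ended 0 calls, centring ended 19, ERCC scaling 13, edgeR 19, DESeq2 12 and leaving out single libraries 21. At 16 h of Ex-4 in WT, 3 members were called, against 6 with centring, 7 with ERCC scaling, 5 with edgeR and 7 with DESeq2. At 1 h of FSK, 2 were called in WT, against 1 with centring, ERCC scaling or edgeR, and 1 in Med14 S983A, against 2 with centring, ERCC scaling, edgeR or DESeq2. The 8 h Ex-4 interaction had 1, Rph3a, against 0 at a mean of at least 5 TPM (Rph3a is then not tested), 2 with centring or DESeq2 and 3 with ERCC scaling. With edgeR it also had 1, but that was Snap25. The 16 h Ex-4 interaction had 6, against 8 with centring or edgeR. It had 16 with ERCC scaling and 17 with DESeq2, which both scale on the spike-ins. Ex-4 against FSK at 1 h had 1, against 2 with a pseudocount of 0.1. The causes were not tested.

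Leaving out 1 library gave 3 to 5 called members at 16 h of Ex-4 in WT, 1 to 2 at 1 h of FSK in WT, 1 to 2 in the 8 h Ex-4 interaction and 4 to 6 in the 16 h Ex-4 interaction. The ranges were 8 to 9 at 8 h of Ex-4, 17 to 19 at 8 h of FSK and 16 to 19 at 16 h of FSK in WT. In Med14 S983A they were 6 to 7 at 16 h of Ex-4 and 20 to 24 at 8 h of FSK, and 10 to 13 for the genotypes in CON. They were 9 to 12 and 8 to 11 for the FSK interactions at 8 and 16 h, and 9 to 11 and 12 to 14 for Ex-4 against FSK at 8 and 16 h. Such a fit takes the lone library to vary like those of the other groups.

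No pairing by replicate number common to all groups was seen. The correlation of replicate differences across genes ran from -0.28 to 0.28 over 91 pairs of groups, with a median of 0.0035 and 17 above 0.1. Pairing shared by only some groups was not tested. The replicate block gave the same counts, such as 3 members at 16 h of Ex-4 in WT and 12 between the genotypes in CON. With 2 libraries a group, differences near the fold limit and genes near 1 TPM are the least certain.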
